A study of Mus musculus with 6 samples.

Results

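The genes described here make, sort and pack the contents of the hormone granule in pancreatic islets. Named by symbol, they are the prohormone convertase genes Pcsk1 and Pcsk2, the carboxypeptidase gene Cpe, the convertase chaperone gene Scg5, the granule zinc transporter gene Slc30a8, the granin genes Chga, Chgb, Scg2 and Scg3, and the granule membrane gene Ptprn. The members are every probe set that the platform annotation names for 1 of these 10 symbols alone. This gave 10 probe sets for 9 genes, of 18193 genes named in this way on the array, and Pcsk2 was not analysed here. RNA came from islets of mice labelled knockout, which carried Pdx1Cre and floxed Ppar-beta alleles (Pdx1Cre;PPARbetafl/fl), and from control littermates with the floxed alleles and without Cre (PPARbetafl/fl). Each group held 3 arrays, each from a different mouse aged 8 weeks on a mixed background of SV 129 and C57BL/6. The Pdx1 promoter drives Cre in the whole developing pancreas, exocrine tissue included. The groups differ in the Cre transgene as well as in the deletion, so these cannot be told apart in any difference below. The samples are labelled as beta cells, but the protocol isolates entire islets, in which alpha, delta and PP cells lie beside the beta cells.

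Peptide hormones are made as longer precursors that are cut while they travel from the Golgi into secretory granules. In the beta cell the convertases encoded by Pcsk1 and Pcsk2 cut proinsulin after paired basic residues, the exopeptidase encoded by Cpe trims the basic residues left at the new ends, and the product of Scg5 (7B2) helps the Pcsk2 enzyme to fold and reach the granule. The transporter encoded by Slc30a8 (ZnT8) brings zinc into the granule, where insulin crystallises with it. Granins are acidic proteins that aggregate with the hormones at the granule's low pH, and Ptprn encodes IA-2, a granule membrane protein related to tyrosine phosphatases.

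Values are log2 expression values, so a difference of 1 is a doubling, and each is given for the arrays labelled knockout 1 to 3 and for controls 1 to 3. Array medians lay between 5.39 and 5.49, and pairs of arrays correlated at 0.991 to 0.993 among those labelled knockout, 0.981 to 0.991 among controls and 0.978 to 0.987 across groups. The targeted gene was not lower: Ppard, on its brighter probe set, stood at 8.01, 8.20 and 7.70 in the arrays labelled knockout and at 7.75, 7.56 and 7.12 in controls (adjusted p = 0.377 with limma). Its dimmer probe set read 5.97, 5.84 and 5.73 in the arrays labelled knockout and 5.57, 5.47 and 5.47 in controls, higher without overlap (adjusted p = 0.255, limma). The labels name no deleted exon, so both probe sets may lie outside the deleted part and the genotype rests on the labels. The mean of 22 acinar cell markers, a measure of exocrine RNA in the islet preparations, was 8.67, 5.71 and 5.87 in the arrays labelled knockout and 6.83, 11.00 and 11.19 in controls. Control 1 was thus poorer in acinar RNA than the first array labelled knockout.

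One of the 9 measured genes, Slc30a8, passed the test, and it was lower in the arrays labelled knockout. The test was limma's moderated test with p-values adjusted over all 45037 probe sets (Benjamini-Hochberg), called at an adjusted p under 0.05. By this rule 1.10% of all genes were called, 0.852% higher and 0.247% lower, and 0.798% of the 2004 genes with a mean log2 value of at least 10, the range in which the members lie. Of the other 8 genes, 3 had higher means in the arrays labelled knockout (Pcsk1, Chgb and Ptprn) and 5 had lower ones (Cpe, Scg5, Scg2, Scg3 and Chga). The groups did not overlap in 7 of the 9 genes, against 21.2% of all genes and 34.8% of these bright genes. The median difference of the 9 genes was -0.071, beside 0.0020 over all genes, and the median size of a difference was 0.31, beside 0.14 over all genes and 0.11 over the 2004 bright ones.

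**Figure D1:**
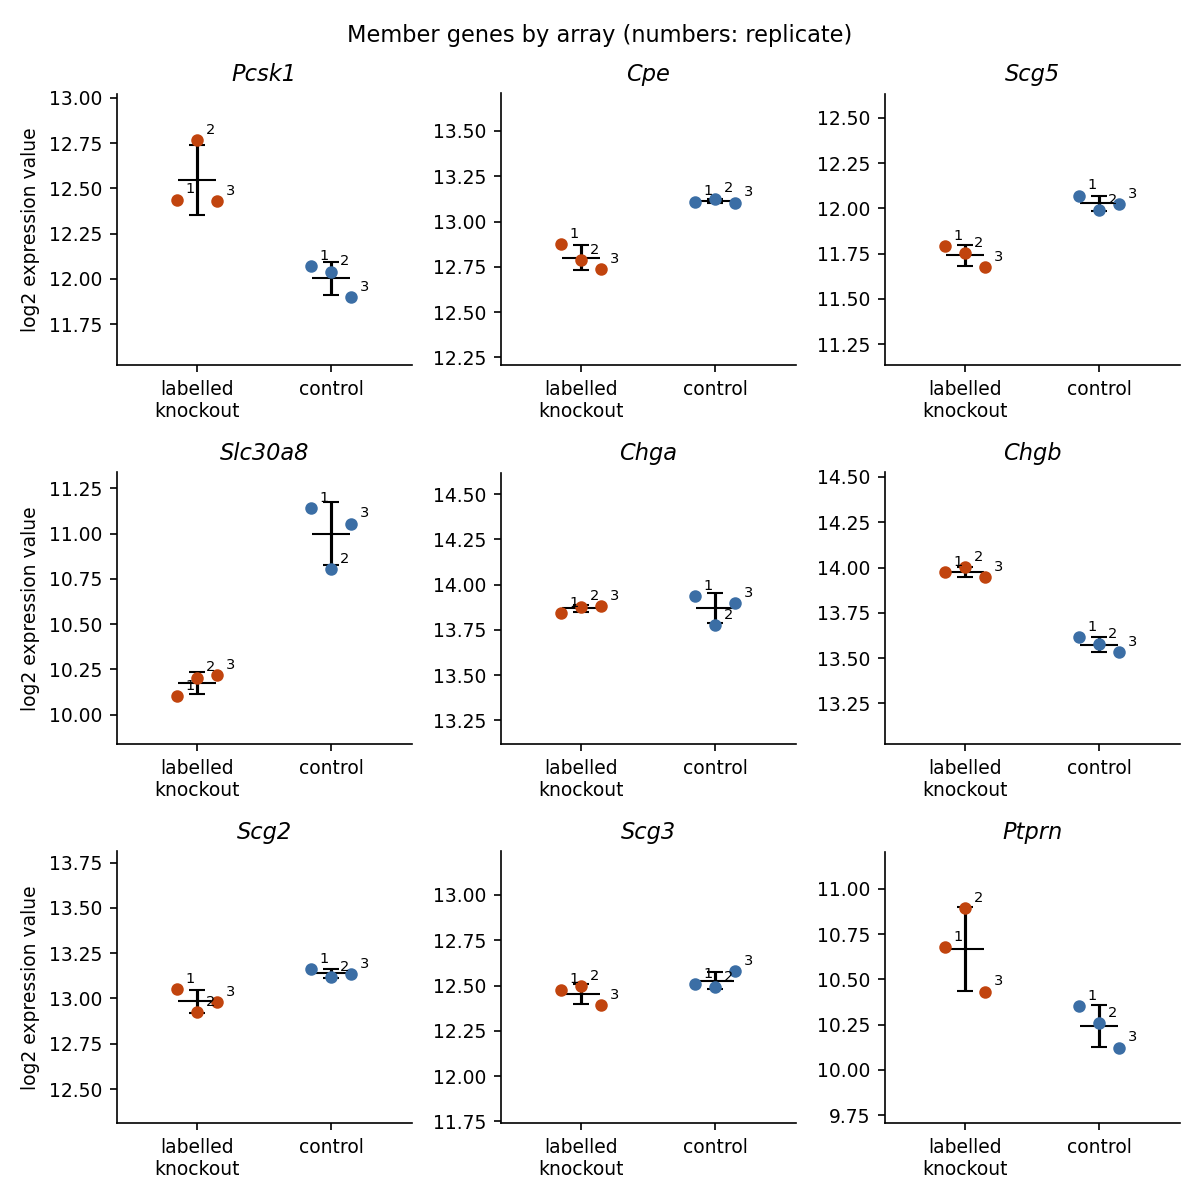
Log2 expression values of the 9 measured genes (brightest probe set) in the 3 arrays labelled knockout (left of each panel) and the 3 control arrays (right), with the mean and SD of each group. All panels span the same number of log2 units. Slc30a8 has the widest gap between groups, and only Chga and Scg3 overlap.

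Slc30a8 was the member that changed most. Its single probe set (1444027_at) read 10.10, 10.20 and 10.22 in the arrays labelled knockout and 11.14, 10.80 and 11.05 in controls. Every array labelled knockout lay below every control, with a gap of 0.59 between the groups. The means were 10.18 ± 0.06 in the arrays labelled knockout and 11.00 ± 0.17 in controls (SD, n = 3 each). Slc30a8 fell by 0.82 on the log2 scale (SE 0.12, 95% interval of the difference -1.12 to -0.53, adjusted p = 0.0394, limma), to 0.565 of the control level. It ranked 342 by p among the 45037 probe sets.

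The Slc30a8 call lies near the threshold. It held without control 2 (adjusted p = 0.0452) and was lost when any other array was left out: without control 1 (0.0533), control 3 (0.161), or the array labelled knockout 1 (0.175), 2 (0.151) or 3 (0.123). The difference itself lay between -0.92 and -0.75 in these 6 fits. Centring each array on its median also ended the call (-0.77, adjusted p = 0.0607). It was -0.95 ± 0.16 (SE) when each array's mean acinar level entered the fit (adjusted p = 0.121) and -0.96 ± 0.15 with controls 2 and 3 left out (adjusted p = 0.127), both chosen after seeing the data. Control 1, which held less acinar RNA than the first array labelled knockout, had the highest Slc30a8 value of the 6 arrays, and that array labelled knockout had the lowest. The arrays labelled knockout 2 and 3 held the least acinar RNA (5.71 and 5.87), with Slc30a8 at 10.20 and 10.22. Controls 2 and 3 held the most (11.00 and 11.19), with Slc30a8 at 10.80 and 11.05. The cause of the Slc30a8 difference was not tested.

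**Figure D2:**
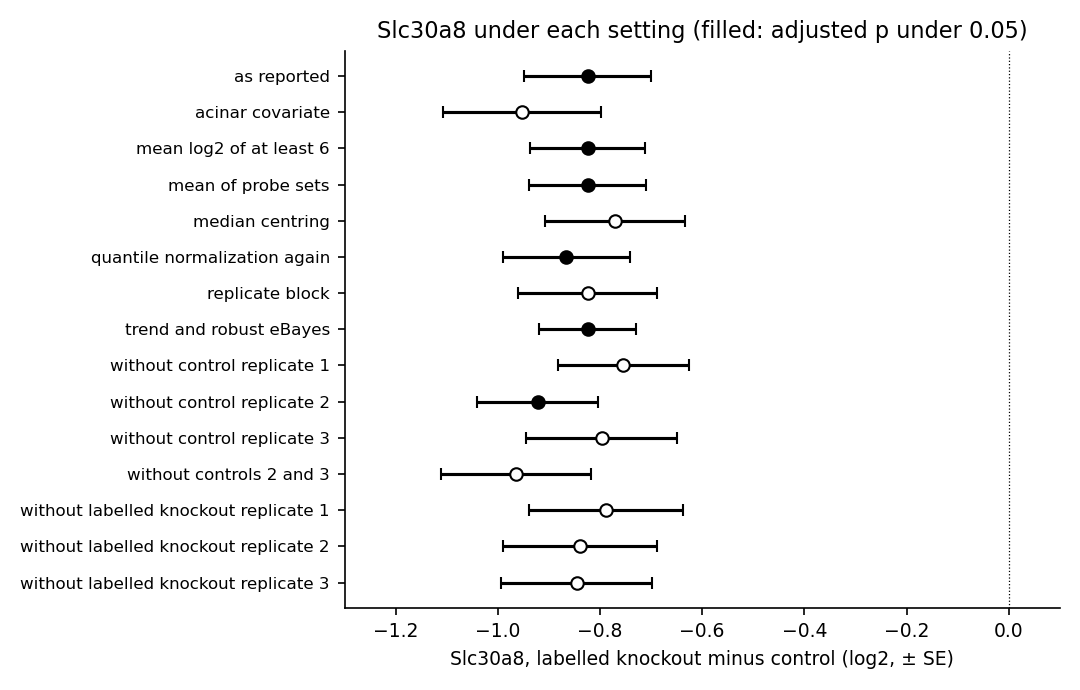
Difference of Slc30a8 between arrays labelled knockout and control arrays (log2, points) with its standard error (bars) as reported and under 14 other settings. The difference lies between -0.96 and -0.75 in every setting shown, and filled points mark the settings in which the adjusted p is under 0.05.

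Islet cell type markers were read beside it. The mean of 7 beta cell markers was 11.55, 11.79 and 11.93 in the arrays labelled knockout and 12.17, 11.85 and 12.03 in controls, so the groups overlapped, and 0 of the 7 were called (limma, with 2 at an unadjusted p under 0.05). The mean of 6 alpha cell markers was 8.20, 8.20 and 8.17 in the arrays labelled knockout and 8.89, 8.96 and 8.77 in controls, with 1 of the 6 called lower. The mean of 7 delta, PP and epsilon cell markers was 9.91, 9.93 and 9.87 in the arrays labelled knockout and 10.63, 10.42 and 10.47 in controls, with 2 of the 7 called lower. Slc30a8 is known to be expressed in alpha as well as beta cells, and the part of these markers in its difference was not tested. In whole islets, fewer cells of a type and less RNA per cell cannot be told apart.

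Among the other genes of zinc handling the single call was a rise. Of 27 zinc exporters, importers, metallothioneins and their regulator, 1 rose, 0 fell and 26 missed the threshold (limma), and the median difference was -0.0029. None was lower at an unadjusted p under 0.05 or with the intensity trend described below. With that trend 4 were called higher, the 4 importers named next, where 2.73% of all genes were called in either direction. The gene that rose was Slc39a11, which encodes the zinc importer ZIP11. It read 8.58, 8.63 and 8.62 in the arrays labelled knockout and 7.68, 7.65 and 7.64 in controls, a difference of 0.95 ± 0.09 (SE, adjusted p = 0.00819, limma). The next smallest p belonged to importers too, but importers lay on both sides. Of the 27 genes 13 had higher and 14 lower means, with the importers Slc39a8 (-0.43) and Slc39a2 (-0.28) among the lower ones. Slc39a7, which encodes the ZIP7 transporter of the endoplasmic reticulum and Golgi, differed by 0.52 ± 0.13 (adjusted p = 0.159). Slc39a1 differed by 0.39 ± 0.10 (adjusted p = 0.18) and Slc39a6 by 0.33 ± 0.11 (adjusted p = 0.276). The groups did not overlap in any of these 4 importers, nor on the other 3 probe sets of Slc39a6. The 4 were named for their small p, which favours such separation. Over the whole list 7 of 27 genes (25.9%) did not overlap, beside 21.2% of all genes and 34.8% of the bright ones.

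Among the processing enzymes, Pcsk1 had higher and Cpe lower values in the arrays labelled knockout, neither past the threshold. Pcsk1 (1421396_at), the convertase that opens proinsulin first, read 12.44, 12.77 and 12.43 in the arrays labelled knockout and 12.07, 12.04 and 11.90 in controls. All 3 arrays labelled knockout were above all 3 controls, and the array labelled knockout 2 stood above the rest. The difference was 0.54 ± 0.13 (SE, 95% interval 0.23 to 0.86), or 1.46-fold, with an adjusted p = 0.152 (limma).

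Cpe (1415949_at) read 12.88, 12.79 and 12.74 in the arrays labelled knockout and 13.11, 13.13 and 13.10 in controls. The controls lay within a very narrow band (SD 0.011), with every array labelled knockout below it. The difference was -0.31 ± 0.10 (SE, 95% interval -0.55 to -0.079, adjusted p = 0.255). A second Cpe probe set (1439437_x_at), at 3.02 ± 0.15 in the arrays labelled knockout and 3.11 ± 0.35 in controls (SD, n = 3 each), was dim, overlapped between groups and differed by -0.092.

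Scg5 (1423150_at), the chaperone gene, read 11.79, 11.75 and 11.68 in the arrays labelled knockout and 12.07, 11.99 and 12.02 in controls. Here too every array labelled knockout was below every control. The difference was -0.29 ± 0.10 (SE, 95% interval -0.52 to -0.053, adjusted p = 0.297). Within each array, the change of Pcsk1 exceeded that of Cpe by 0.85, which the exact permutation test over the 6 arrays put at p = 0.1 (two-sided, and also 0.1 after adjustment over the 2 pairs of genes tested in this way). That is the smallest p that 3 arrays against 3 allow, and the pairs were chosen after their values were seen. In each pair 1 gene lay above and the other below all controls in every array labelled knockout. The p was therefore fixed by the choice of genes and adds no support.

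The 4 granins all missed the threshold, and they lay on different sides of their controls. Chgb (1415885_at) read 13.97, 14.00 and 13.95 in the arrays labelled knockout and 13.62, 13.58 and 13.53 in controls, a gap of 0.33 between the groups, beside SDs of 0.027 and 0.042 within them. Its difference was 0.40 ± 0.10 (SE, 95% interval 0.17 to 0.63), or 1.32-fold, with an adjusted p = 0.146 (limma). Chga (1418149_at), the granin used most widely as a neuroendocrine marker, read 13.84, 13.88 and 13.88 in the arrays labelled knockout and 13.94, 13.78 and 13.90 in controls. The groups overlapped and the difference was -0.0018 ± 0.10 (SE, 95% interval -0.24 to 0.24, adjusted p = 0.997), with no stable sign across settings.

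Scg2 (1450708_at), the precursor of secretoneurin, read 13.05, 12.93 and 12.98 in the arrays labelled knockout and 13.16, 13.12 and 13.13 in controls. The groups were separate but close, with a difference of -0.15 ± 0.10 (SE, 95% interval -0.39 to 0.079, adjusted p = 0.571). Scg3 (1448628_at), which encodes a protein that binds chromogranin A and cholesterol-rich granule membrane, read 12.48, 12.50 and 12.39 in the arrays labelled knockout and 12.51, 12.49 and 12.58 in controls. These overlapped, with a difference of -0.071 ± 0.099 (SE, adjusted p = 0.82). The change of Chgb exceeded that of Scg2 by 0.55 within arrays (exact permutation p = 0.1, two-sided, the smallest possible here, and again fixed by the choice of genes). Chga and Chgb lie above percentile 99.9 of all probe sets, where array signals are compressed and differences can be understated.

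Ptprn (1416588_at), for the membrane protein IA-2, read 10.68, 10.89 and 10.43 in the arrays labelled knockout and 10.35, 10.26 and 10.12 in controls. All 3 arrays labelled knockout were higher, with a gap of 0.080 between the lowest of them and control 1. The difference was 0.42 ± 0.15 (SE, 95% interval 0.076 to 0.77), or 1.34-fold (adjusted p = 0.301, limma). Of the 9 genes it had the widest spread, with an SD of 0.23 in the arrays labelled knockout. Its relative Ptprn2, which encodes phogrin, differed by -0.24 (adjusted p = 0.445).

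The 3 genes with higher means ranked the 6 arrays alike. For Pcsk1, Chgb and Ptprn the order from the highest value was the arrays labelled knockout 2, 1 and 3, then controls 1, 2 and 3. Over all genes measured, 117 of 18193 (0.643%) had this order. Only genes without overlap between groups, 21.2% of all genes, can have it, so the share among genes like these 3 is larger. The 6 genes with lower means had 6 different orders. Control 1 was the highest array for Slc30a8, Scg5, Scg2 and Chga, control 2 for Cpe and control 3 for Scg3. In controls 1, 2 and 3 the order of Pcsk1, Chgb and Ptprn is the reverse of the acinar means (6.83, 11.00 and 11.19). In the arrays labelled knockout 2, 1 and 3 it is not (5.71, 8.67 and 5.87). With the acinar level in the fit Pcsk1, Chgb and Ptprn differed by 0.44, 0.37 and 0.34, beside 0.54, 0.40 and 0.42 without it. These orders describe 6 libraries, and neither they nor their cause was tested.

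How the spread was modelled decided how many members passed. The members are bright and varied little between mice: the median SD within groups was 0.052 over the 9 genes, beside 0.094 over the 2004 bright genes and 0.17 over all genes. The reported fit draws each gene's variance towards 1 common value for all probe sets, bright or dim. With a value that follows intensity (limma's trend and robust options), 5 of 9 members passed. Chgb and Pcsk1 were then higher (adjusted p = 0.00122 and 0.0294), and Slc30a8, Cpe and Scg5 lower (0.00468, 0.0136 and 0.0373). The differences stayed as given, and the standard error of Chgb became 0.035. In that fit 2.73% of all genes and 6.29% of the bright genes were called. Ptprn (adjusted p = 0.147), Scg2 (0.15), Scg3 (0.589) and Chga (0.992) did not pass in it either.

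**Figure D3:**
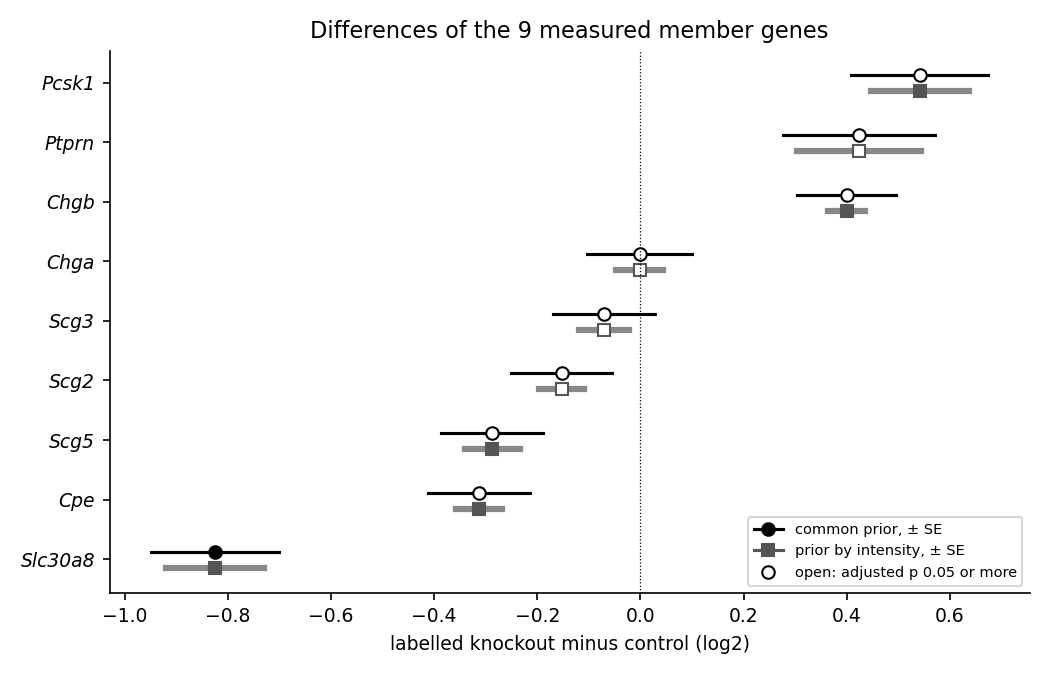
Differences of the 9 genes, arrays labelled knockout minus control (log2), with standard errors. Black circles use 1 common prior variance and grey squares a prior that follows intensity, and filled symbols have an adjusted p under 0.05. Slc30a8 is filled in both fits, and Pcsk1, Chgb, Cpe and Scg5 only in the grey one.

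Many granule genes are known to respond to cyclic AMP through a cAMP response element, whose full form is the palindrome TGACGTCA. Promoter windows of 300 bases, 250 before and 50 after the annotated start, were available for 8 of the 10 genes (RefSeq, GRCm38.p6), with Slc30a8 and Cpe not among them. The palindrome was found in 3 of these 8 genes (Pcsk1, Chgb and Scg2), against 2.92% of 14452 genes measured on the array that have a window and 1.79% of all 32851 windows. It begins 78 bases before the start in Pcsk1, 72 in Chgb and 68 in Scg2. Chga holds TGACGTAA instead, 44 bases before its start. These letters were searched for as the form of Chga, so the match there was fixed in advance. The form was found in 0.74% of the 14452 genes. The 110 bases before the start are shown for these 4 genes because they carry this element while their means in the arrays labelled knockout lay on different sides of the controls, those of Pcsk1 and Chgb above, that of Scg2 below and that of Chga within the control range. Capitals mark the element, and each sequence is written along the gene's own strand.
Pcsk1 (chr13:75089747-75089856, plus strand): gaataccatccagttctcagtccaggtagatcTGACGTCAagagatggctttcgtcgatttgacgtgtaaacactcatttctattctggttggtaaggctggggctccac
Chgb (chr2:132781532-132781641, plus strand): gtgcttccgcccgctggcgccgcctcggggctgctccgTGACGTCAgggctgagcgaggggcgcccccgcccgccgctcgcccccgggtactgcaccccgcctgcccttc
Scg2 (chr1:79440027-79440136, minus strand): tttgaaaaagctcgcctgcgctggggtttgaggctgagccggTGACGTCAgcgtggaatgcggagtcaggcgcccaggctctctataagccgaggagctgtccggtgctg
Chga (chr12:102554831-102554940, plus strand): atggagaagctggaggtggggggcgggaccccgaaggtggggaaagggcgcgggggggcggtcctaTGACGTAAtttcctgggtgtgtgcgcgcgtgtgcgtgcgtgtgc

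The 5-letter core TGACG, read on both strands, stood in a window of all 8 genes and in 30.0% of the 14452 genes. It lies inside the palindrome, so these matches overlap. Of the 422 genes on the array with the palindrome, 0 were called with limma as reported, against 1.11% of the genes without it. With the intensity trend 9 were called, or 2.13%, beside 2.73% of all 18193 genes, those without a window included. The 9 include Pcsk1 and Chgb, whose calls in that fit are given above. At an unadjusted p under 0.05 there were 63, or 14.9%, against 13.8% of the genes without it. The median difference of the genes with it was 0.022, beside 0.0042 for the genes without it. A direct repeat of AGGTCA with 1 base between the copies (both strands), a form of the element that PPAR and RXR bind, was found in none of the 8 member windows and in 0.0396% of all windows. A match of letters is not evidence of binding, and a missing match says only that these letters are not in this window.

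**Figure D4:**
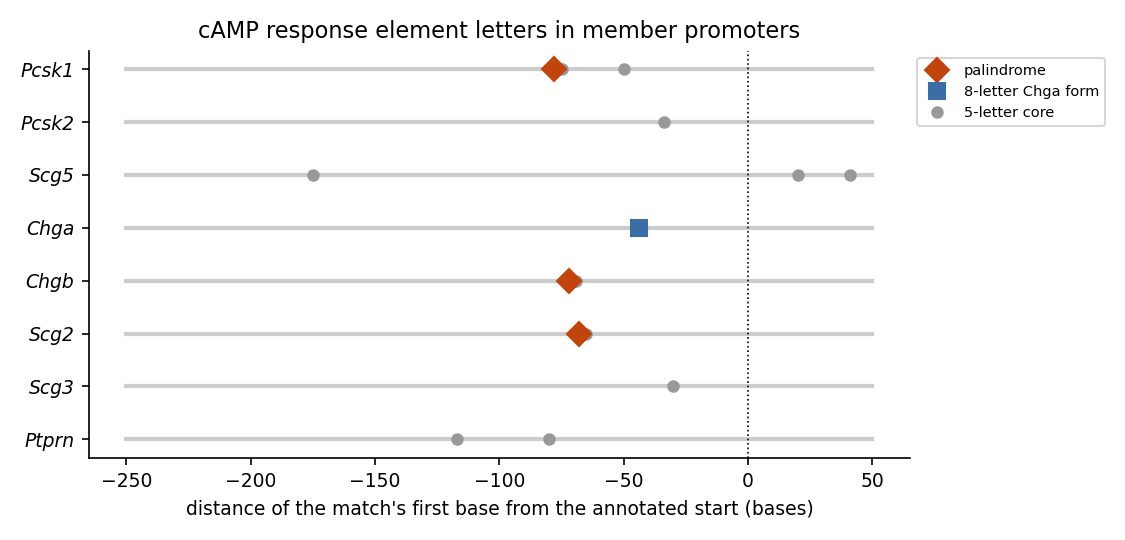
Positions of cAMP response element letters in the promoter windows of 8 genes, as the distance in bases of the match's first base from the annotated start (dotted line). Red diamonds mark the palindrome at 78, 72 and 68 bases before the start in Pcsk1, Chgb and Scg2, the blue square the Chga form at 44, and grey dots the core.

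Outside the 10 genes, other processing enzymes held 1 call. Of 21 genes 1 rose and 0 fell, 20 missed the threshold, and the list had a median difference of 0.050. Cpxm2, which encodes a carboxypeptidase-like protein, read 5.83, 5.75 and 6.03 in the arrays labelled knockout and 3.50, 3.72 and 3.57 in controls. It rose by 2.27 ± 0.12 (SE, adjusted p = 9.37e-04, limma), from a dim control level at percentile 25.3 of all probe sets, while its second probe set differed by 0.36 (adjusted p = 0.388). At an unadjusted p under 0.05 there were 6 of the 21, of which 3 were lower, beside 13.8% of the genes without the palindrome. The groups did not overlap in 7 of the 21 (33.3%), beside 21.2% of all genes. With the intensity trend 0 were called lower and 2, Cpxm2 and Cpd, higher. The convertase gene Furin differed by 0.16 (adjusted p = 0.577) and the convertase inhibitor gene Pcsk1n by 0.082 (adjusted p = 0.893).

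Cpd encodes carboxypeptidase D, a relative of the Cpe enzyme that resides in the trans-Golgi network. It differed by 0.54 ± 0.13 (adjusted p = 0.148), opposite in sign to Cpe, and all 7 of its probe sets were higher in the arrays labelled knockout with no overlap between groups. Qpct, the glutaminyl cyclase that caps peptide ends, differed by -0.90 ± 0.25 (adjusted p = 0.194), and the membrane-bound carboxypeptidase gene Cpm by -0.73 ± 0.25 (adjusted p = 0.293).

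Of the peptide products of the beta cell, Ins2 and Iapp differed little, and Ins1 was not analysed here. Ins2 read 13.71, 13.87 and 13.82 in the arrays labelled knockout and 13.85, 13.83 and 13.87 in controls, a difference of -0.050 (95% interval -0.29 to 0.19, adjusted p = 0.887), and the amylin gene Iapp differed by 0.017 on its brightest probe set (adjusted p = 0.964) and by -0.043 to -0.013 on its other 3. Both lie at the top of the array's range. The peptide gene Ucn3, also counted among the beta cell markers, differed by -0.95 ± 0.33 (SE, adjusted p = 0.305, limma), with overlap between groups. Of 19 peptide genes, 1 rose, 0 fell and 18 did not pass (median difference 0.017). At an unadjusted p under 0.05 there were 6 of the 19, of which 4 were lower, beside 13.8% of the genes without the palindrome. The groups did not overlap in 7 of the 19 (36.8%), beside 21.2% of all genes. With the intensity trend 2 were called lower, Sst and Pyy, and 2 higher, Penk and Nucb2. The proenkephalin gene Penk, precursor of opioid peptides, rose by 2.11 ± 0.17 (adjusted p = 0.0035), from a dim control level at percentile 28.7 of all probe sets. It read 5.75, 6.08 and 6.04 in the arrays labelled knockout and 3.999, 3.54 and 3.99 in controls. Nucb2, the precursor of nesfatin, differed by 0.51 ± 0.12 (adjusted p = 0.125), Sst by -0.51 ± 0.12 (adjusted p = 0.152) and Pyy by -0.33 ± 0.11 (adjusted p = 0.263), each without overlap between groups.

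Other granule membrane and granule formation genes held no call: 0 of 30 passed in either direction (limma), and 0 with the intensity trend. At an unadjusted p under 0.05 there were 5 of 30, beside 13.8% of the genes without the palindrome. The groups did not overlap in 9 of the 30 (30%), beside 21.2% of all genes and 34.8% of the bright ones. The median difference was 0.085, beside 0.0020 over all genes and 0.034 over the bright ones. The vesicular monoamine transporter gene Slc18a1 differed by 0.93 ± 0.23 (adjusted p = 0.149), with 2 dim probe sets at 0.084 and -0.0020. Sort1, which encodes the sorting receptor sortilin, differed by -0.44 ± 0.14 (adjusted p = 0.255) and was lower without overlap on all 3 probe sets. The proton pump subunit gene Atp6v1a differed by 0.32 ± 0.11 (adjusted p = 0.302) and Ica1l by -0.53 ± 0.19 (adjusted p = 0.308).

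**Figure D5:**
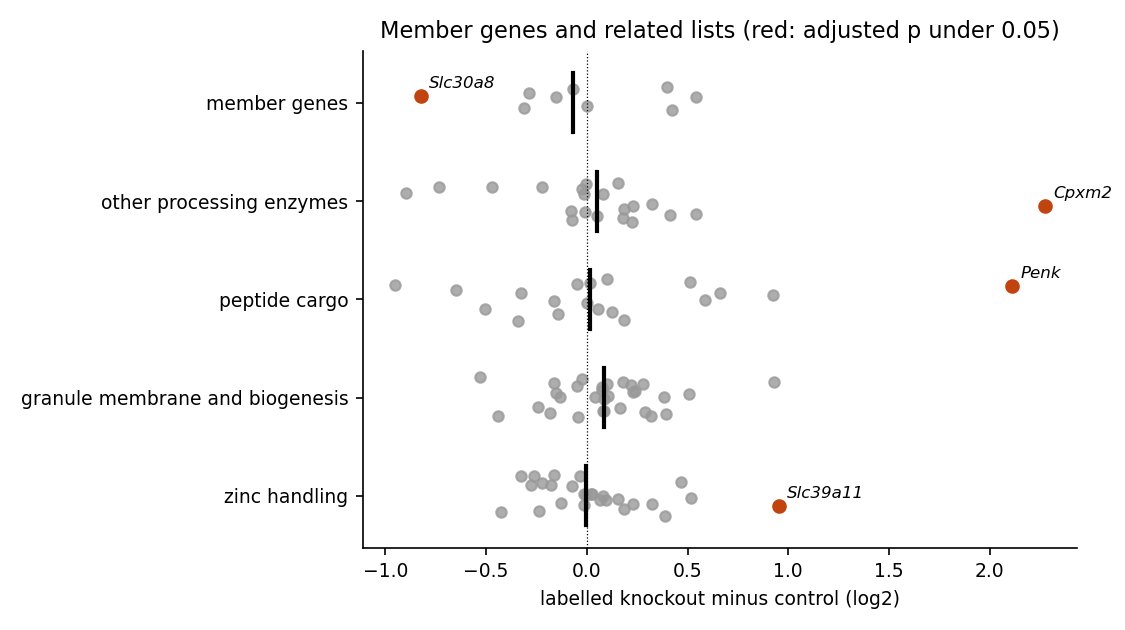
Differences between arrays labelled knockout and control arrays (log2) for the 9 measured genes and for 4 related gene lists, 1 point per gene, with the list's median as a black line. Red points have an adjusted p under 0.05: Slc30a8 is lower, and Cpxm2, Penk and Slc39a11 are higher.

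The genes whose profile over the 6 arrays was nearest to that of Slc30a8, by root mean square difference after centring each gene on its mean, were 8430432A02Rik (0.032), Aldh2 (0.042), Arg1 (0.081), BC025920 (0.083) and Mansc1 (0.088). Of these, 8430432A02Rik and BC025920 are dim, and Aldh2, the mitochondrial aldehyde dehydrogenase gene, read 8.48, 8.54 and 8.63 in the arrays labelled knockout and 9.48, 9.12 and 9.48 in controls (adjusted p = 0.055). Nearest to Pcsk1 were Narf (0.035), Stx12 (0.042), Pdia4 (0.049), Slc39a7 (0.054) and Acyp2 (0.057). Pdia4, which encodes a protein disulphide isomerase of the endoplasmic reticulum, read 10.65, 10.89 and 10.62 in the arrays labelled knockout and 10.18, 10.21 and 10.14 in controls (adjusted p = 0.104). The likeness covers the difference between groups as well as the order within them.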

How the data were processed

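Islet RNA was amplified in 1 round and hybridised to 1-colour Affymetrix arrays, per the labels' protocols. The deposited values are log2 expression per probe set, made by the authors with RMA per the submitters' processing notes, with no version given. RMA subtracts a modelled background, equalises the distributions of the arrays and combines the probes of a set. It leaves no detection call, so dim values carry an unknown background. Of 45101 probe sets, 64 manufacturer controls were left out. The platform annotation gave 1 symbol for 34945 of the other 45037, several for 932 and none for 9160. The probe set with the highest mean over 6 arrays stood for a gene.

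Groups were compared in limma 3.58.1 (R 4.3.3) with no term besides group, by two-sided tests on all 45037 probe sets. The fit was also run on simulated data with independent noise for each probe set. Those data held no acinar difference shared between genes, so they do not show how the fit behaves with it. Precision is limited by 3 arrays per group. The members and lists were chosen with earlier results of these data known, and lists are described by counts and medians only. Named genes were all members, the called genes and the 4 smallest p of each related list, Ins2 and Iapp, and the 5 profiles nearest to Slc30a8 and to Pcsk1. Ptprn2, Furin, Pcsk1n and Ucn3 were chosen after their values were seen. Alternatives covered each array left out, scaling, normalization, variance model, a floor on dim probe sets, the probe set rule, the replicate number as a block, and acinar RNA.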

Additional observations from a re-analysis of the deposited data

How the results depend on the processing

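Among the 9 member genes, 8 kept the sign of their difference in all 14 alternatives. The exception was Chga, at -0.0018 as reported, 0.051 after median centring, 1.66e-04 after quantile normalization again, and -0.049 to 0.032 with 1 array left out. The Slc30a8 difference of -0.82 was no longer past adjusted p 0.05 after median centring (-0.77, adjusted p = 0.0607), with the acinar covariate (-0.95), without controls 2 and 3 (-0.96) and with the replicate block (-0.82, adjusted p = 0.104), and ranged from -0.92 to -0.75 with 1 array left out. In these last fits the number of members called was 0 or 1, in place of 1. It was 0 with the acinar covariate, after median centring, with the replicate block and without controls 2 and 3, and 5 with the intensity trend. The median difference of the members, -0.071, moved to -0.018 after median centring and lay between -0.092 and -0.039 with 1 array left out. The related lists held 3 calls, 10 with the intensity trend, 1 above a mean log2 of 6, 1 without controls 2 and 3, and 2 to 3 with 1 array left out. Calls over all probe sets numbered 404, against 648 above that floor, 903 with the trend, 246 with the replicate block, 130 with the acinar covariate, 54 without controls 2 and 3, and 152 to 783 with 1 array left out. The causes were not tested. Same-numbered arrays share only a number: their deviations correlated at -0.054, 0.14 and 0.0045, and 2 of 6 arrays correlated best with their own number. The comparison without controls 2 and 3 keeps 1 control, assumed to vary like the other group. The planned comparison of Pcsk1 with Pcsk2 was not run, since Pcsk2 was not analysed here.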
